A study of Mus musculus with 4 samples.

Results

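The proteasome is the protease complex that degrades proteins marked with ubiquitin. The messenger RNAs of its subunits are described here in an RNA immunoprecipitation experiment, in which an antibody holds a protein on beads and the RNA that stays with it is sequenced. Members were the protein-coding genes of the GENCODE M21 annotation whose symbol starts with Psma, Psmb, Psmc, Psmd or Psme followed by a digit. Of 55573 gene entries in the count table, 45 matched. One match, Psmc3ip, encodes a recombination factor and no proteasome subunit, so it was kept apart, which left 44 genes. These were 8 Psma and 11 Psmb genes of the core particle, 6 Psmc and 14 Psmd genes of the regulatory particle and its assembly, and 5 Psme genes of other activators.

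All libraries came from wild-type C57BL/6 mouse embryos at stage E10.0, from CD31+ cells sorted out of the caudal part, with no treatment named. For 2 libraries the antibody was raised against Runx1, a transcription factor of emerging blood cells, and for the other 2 it was IgG, which recovers RNA without a chosen target. The comparison asks which RNAs took a larger part of the library with the Runx1 antibody than with IgG. An input library was not analysed here. The sources used here do not say whether a replicate is a separate pool of embryos or another reaction from the same cells, so p-values measure the spread between libraries, which may be technical.

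The libraries held 1675488 to 3843318 gene counts, and 3 counts corresponded to 0.781 to 1.79 CPM (counts per 1000000 gene counts). A level is therefore a share of a library, and the amount of RNA recovered by each antibody is not part of it. In RNA pulled down from many cells, fewer cells of a type, less RNA per cell and less recovery by the antibody cannot be told apart. The sources used here do not say that the cells differed between the antibodies. The endothelial markers were all detected, but so were the markers of every other cell type listed, so detection alone cannot test the CD31+ sort. Pecam1, the gene of CD31, stood at 93.1 and 103 CPM with the Runx1 antibody and at 99.9 and 79.4 CPM with IgG. None of the 7 erythroid and 5 neural markers was at 0 in all libraries or called by edgeR. Among markers of other cells, the summed level of the erythroid genes was 844 CPM in both Runx1 libraries against 480 and 448 CPM with IgG. The neural genes summed to 633 and 518 against 388 and 380 CPM. Mesenchymal genes summed to 838 and 829 against 912 and 876 CPM. Of these 6 mesenchymal markers 1 was called lower by edgeR, where 0.339% of all tested genes were. Epithelial genes had 152 and 149 against 148 and 104 CPM. Megakaryocyte and platelet genes had 37.0 and 66.2 against 61.9 and 53.2 CPM. Within these last lists single markers differed in direction, which the sums hide. Ppbp stood at 12.5 and 12.2 against 0.260 and 0 CPM, while Itga2b stood at 24.5 and 48.7 against 59.6 and 50.8 CPM. Col1a2 had 309 and 249 against 206 and 162 CPM, and Prrx1 had 100 and 113 against 156 and 216 CPM. Krt8 had 38.8 and 39.7 against 13.0 and 1.61 CPM, and Krt18 had 15.5 and 6.89 against 28.1 and 4.43 CPM. The part of such cells in the values below was not tested.

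In the complete proteasome, a barrel of stacked rings forms the core. The outer alpha rings gate the entrance, and the inner beta rings carry the active sites. A regulatory particle caps the barrel. Its base holds a ring of ATPases that unfold the substrate, and its lid removes ubiquitin before the substrate enters. Other caps open the core without ATP, and in cells exposed to interferon some active subunits are exchanged for those of the immunoproteasome, whose peptides serve antigen presentation. The genes of the standard subunits of the core and regulatory particle are expressed in nearly all cells, and their products are needed in fixed ratios.

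The 6 ATPases are close relatives, and they serve to show the RNA sequences at issue. Each line gives 60 coding bases around the Walker A motif, the loop that binds ATP, whose 8 codons begin at base 19 of the stretch. Capitals mark G or C at the third position of a codon, which the amino acid often leaves free. The sequences come from the GENCODE M21 transcripts of GRCm38 and read 5′ to 3′ along the mRNA.
Psmc1: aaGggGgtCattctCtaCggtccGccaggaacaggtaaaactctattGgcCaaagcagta
Psmc2: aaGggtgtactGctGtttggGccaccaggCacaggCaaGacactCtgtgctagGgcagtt
Psmc3: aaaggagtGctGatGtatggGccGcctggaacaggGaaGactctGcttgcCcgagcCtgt
Psmc4: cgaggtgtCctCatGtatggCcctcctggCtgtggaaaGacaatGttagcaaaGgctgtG
Psmc5: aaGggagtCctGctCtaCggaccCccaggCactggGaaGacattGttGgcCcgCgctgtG
Psmc6: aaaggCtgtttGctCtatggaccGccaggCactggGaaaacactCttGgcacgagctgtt
Of the 20 such positions in a stretch, G or C filled 14 in Psmc5, 10 in Psmc3, 9 in Psmc2 and Psmc4, and 8 in Psmc1 and Psmc6. Over the whole coding sequence the share of G or C at these positions was 68.2% in Psmc4, 67.0% in Psmc3, 61.8% in Psmc5, 55.7% in Psmc1, 50.7% in Psmc2 and 36.0% in Psmc6. Psmc6, with the lowest share, was also the 1 ATPase gene that stood lower with the Runx1 antibody, as described with the ATPases. The share did not order the other genes in this way. Psmc2, with the next lowest share, had the largest log2 fold change of the ATPases, 1.69. Psmc1, equal to Psmc6 in the stretch, stood higher with the Runx1 antibody.

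Most proteasome mRNAs took a larger part of the Runx1 libraries than of the IgG libraries, but none passed the test gene by gene. The summed level of all 44 genes was 4347 and 4421 CPM with the Runx1 antibody and 3000.0 and 3183 CPM with IgG. The proteasome genes thus held 0.435% and 0.442% of gene counts in the Runx1 libraries and 0.300% and 0.318% in the IgG libraries, 1.42 times as much, and the groups did not overlap. Over 2 against 2 libraries an exact permutation test has 6 arrangements and its smallest two-sided p is 0.333, so no p is given for such sums. The filter on low counts passed 40 of the 44 genes. Of these, 33 had a log2 fold change above 0 and 7 below it, with a median of 0.64 (1.55-fold) and a range from -0.62 to 1.69. Over all 12401 genes tested the median was 0.027 and 51.5% lay above 0.

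At an edgeR false discovery rate of 0.05, 0 of the 40 were called higher and 0 lower, where 0.306% and 0.339% of all tested genes were called. An edgeR p under 0.05 without adjustment was reached by 12 higher genes and 1 lower gene, where the background was 6.88% and 7.35%. Both Runx1 libraries lay above both IgG libraries for 26 genes and below them for 4, while the libraries of the other 10 overlapped. Over all tested genes 24.1% lay above and 21.3% below in this sense. The 4 lower ones were Psma2, Psmc6, Psmd14 and Psme4. The count of calls depended on the tool. DESeq2 called 6 members higher out of 33 with an adjusted p, Psma7, Psmc1, Psmc2, Psmc4, Psmc5 and Psmd3, where it called 4.34% of its genes higher. Without Runx1 replicate 1, edgeR called 3 higher (Psmc3, Psmc5 and Psmd3, against 1.75% of all genes) and 1 lower (Psme4, against 2.48% of all genes), so the lower count was at the background.

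**Figure D1:**
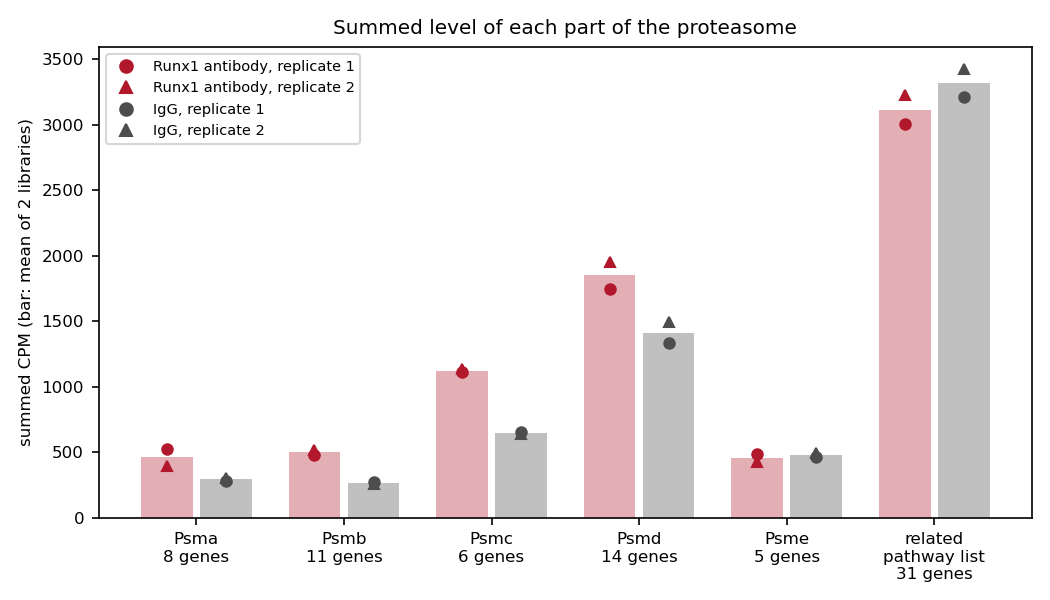
Summed CPM (vertical axis) of the proteasome genes by group and of 31 related genes of the pathway, with a point for each library and a bar for the mean of 2 libraries. The Runx1 points lie above the IgG points for Psma, Psmb, Psmc and Psmd, while those of Psme overlap and those of the pathway list are 3005 and 3225 against 3214 and 3423 CPM.

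The difference was unequal between parts of the complex. The 20S core, Psma and Psmb together, summed to 1003 and 912 CPM with the Runx1 antibody and to 549 and 561 CPM with IgG, a ratio of 1.73. The regulatory particle, Psmc and Psmd together, summed to 2859 and 3086 against 1989 and 2131 CPM, a ratio of 1.44. Its summed level per unit of core was 2.85 and 3.38 in the Runx1 libraries and 3.62 and 3.80 in the IgG libraries. The groups did not overlap in this ratio, but the Runx1 libraries lay further apart than the nearer of them lay from IgG. The median log2 fold change was 0.82 in the core and 0.40 in the regulatory particle. Corrected for length and GC content, these medians were 0.47 and 0.35. Within the regulatory particle the ATPases had a ratio of 1.74 and Psmd 1.31. The activators had a ratio of 0.952, with 485 and 423 CPM against 462 and 492 CPM, and overlapped. The difference between parts was not tested beyond this.

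**Figure D2:**
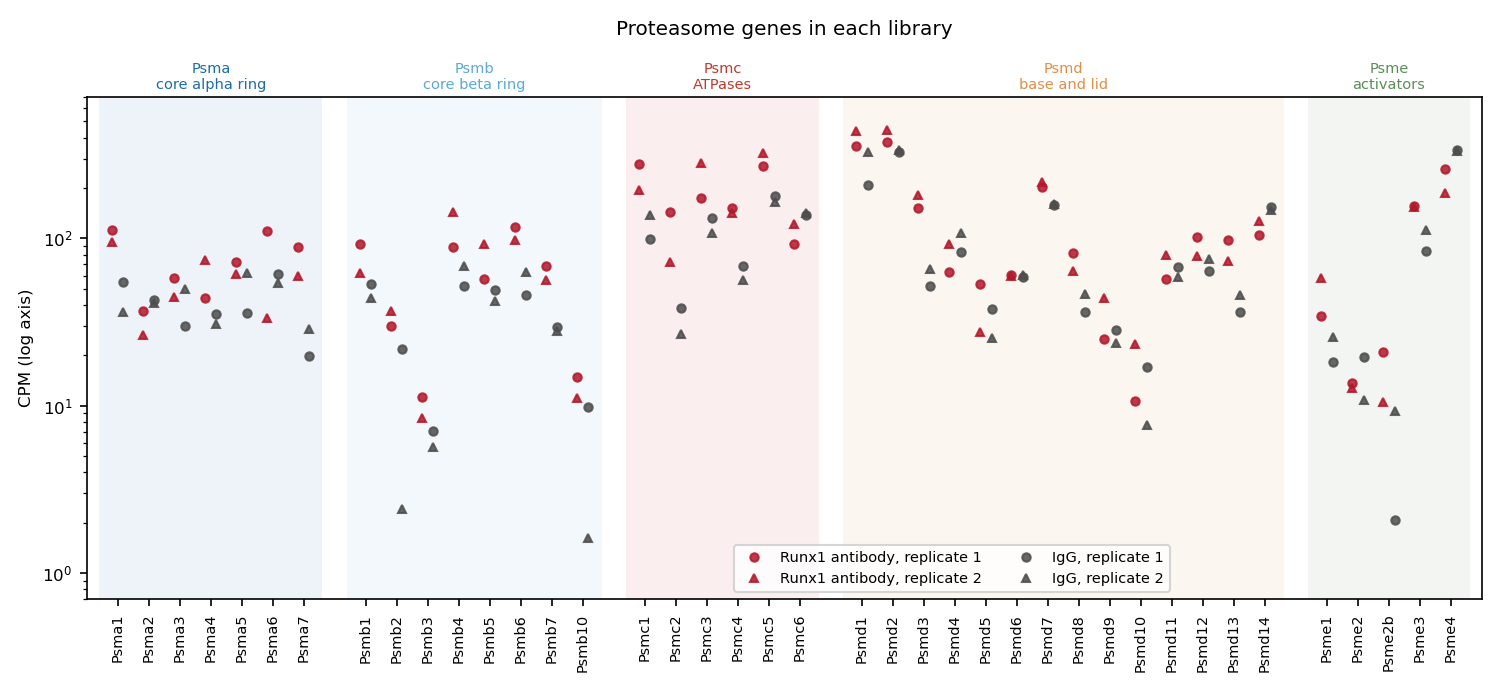
CPM on a log axis for each of the 40 tested proteasome genes, with 1 symbol per library, Runx1 antibody in red and IgG in grey. Red lies above grey without overlap for 26 genes (24.1% over all tested genes), among them all 8 tested Psmb genes. Psmb2 and Psmb10 have 1 IgG library far under the other.

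The alpha ring was represented by 7 tested genes, of which 6 had a log2 fold change above 0, with a median of 0.42. The libraries of 3 genes were above IgG without overlap (24.1% over all tested genes), those of 1 below (21.3%), and those of 3 overlapped. Psma7 (chr2:180036374-180042433, minus strand) encodes an alpha subunit that other proteins often bind. It stood at 88.3 and 59.3 CPM with the Runx1 antibody and at 19.8 and 28.6 CPM with IgG. Its Runx1 libraries were both above its IgG libraries by a wide gap, and the log2 fold change was 1.58 ± 0.46 (SE), but it did not pass (edgeR adjusted p = 0.183).

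Psma1 (chr7:114264606-114276118, minus strand) had 112 and 94.8 CPM against 54.6 and 36.3 CPM. Its fold change of 1.15 ± 0.37 on the log2 scale did not pass either (edgeR adjusted p = 0.217). Psma4 (chr9:54950790-54958030, plus strand), whose exons overlap a gene of the opposite strand, had 44.2 and 74.7 CPM against 35.1 and 31.0 CPM (0.82 ± 0.46, edgeR adjusted p = 0.488). In both genes the groups did not overlap, although the Runx1 libraries of Psma4 lay further apart than the nearer of them lay from IgG. Psma6 had the highest level per kilobase of transcript of the alpha genes over all 4 libraries, although Psma1 was higher in the Runx1 libraries (86.2 against 69.0 CPM per kilobase). The Runx1 libraries of Psma6, 110 and 33.4 CPM, enclosed its IgG libraries, 61.7 and 54.0 CPM, so that no direction can be given (0.28 ± 0.54, edgeR adjusted p = 0.886). Psma2, named after its values were seen, had 37.0 and 26.5 CPM against 42.9 and 41.1 CPM (-0.44 ± 0.48, edgeR adjusted p = 0.764). Psma3 and Psma5, which the naming rule does not cover, overlapped at 0.34 and 0.42 (log2 fold change). A testis counterpart of Psma7, the gene Psma8, had 0 and 4 counts in the Runx1 libraries, 0 and 6 in the IgG libraries, and was not tested.

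All 8 tested genes of the beta ring had a log2 fold change above 0, with a median of 0.94. In all 8 the Runx1 libraries lay above the IgG libraries without overlap, where 24.1% of all tested genes did. Without IgG replicate 2 the median was 0.58 in Psmb and 0.73 in Psma, so the order of these medians depended on that library. The 3 catalytic subunits of the standard proteasome were among them. Psmb6 (chr11:70525367-70527858, plus strand), which cuts after acidic residues, had 117 and 97.5 CPM with the Runx1 antibody and 45.8 and 62.9 CPM with IgG (0.95 ± 0.35, edgeR adjusted p = 0.273). Psmb7 (chr2:38588036-38644087, minus strand), which cuts after basic residues, had 68.0 and 56.2 against 29.4 and 27.8 CPM (1.09 ± 0.43, edgeR adjusted p = 0.310). Psmb5 (chr14:54614119-54618022, minus strand), which cuts after hydrophobic residues, had 57.3 and 93.3 against 49.2 and 42.3 CPM (0.69 ± 0.41, edgeR adjusted p = 0.515). The gap between groups was wide in Psmb6 and Psmb7, while the lower Runx1 library of Psmb5 came close to the higher IgG library. Exons of Psmb7 overlap Nek6 on the opposite strand and those of Psmb5 the microRNA gene Mir686.

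Of the structural beta subunits, Psmb4 (chr3:94884093-94886961, minus strand), needed for the assembly of the core, had 88.3 and 145 against 52.3 and 68.5 CPM (0.92 ± 0.37, edgeR adjusted p = 0.312). Psmb1 had a log2 fold change of 0.64 and Psmb3, the tested beta gene with the lowest level, of 0.61. Psmb2, named after its values were seen, had the largest value of the ring, 1.41 ± 0.90 (edgeR adjusted p = 0.547). That value rested on IgG replicate 2, which had 6 counts (2.42 CPM) against 84 counts (21.9 CPM) in IgG replicate 1, while the Runx1 libraries had 29.8 and 37.1 CPM. Without IgG replicate 2 the log2 fold change of Psmb2 was 0.57 and without IgG replicate 1 it was 3.72.

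Of the immunoproteasome genes, Psmb8 and Psmb9 were at or near the limit of detection and Psmb10 was detected at a low level. Psmb8, which replaces Psmb5, had 1 count in Runx1 replicate 2 and 0 in the other 3 libraries. Psmb9, which replaces Psmb6, had 2 counts in Runx1 replicate 1 and 0 elsewhere. A count of 0 allows up to 1.79 and 1.59 CPM in the Runx1 libraries and 0.781 and 1.21 CPM in the IgG libraries, so both genes were far under Psmb5 and Psmb6 in every library. Psmb10, which replaces Psmb7, was detected in all libraries, with 25 and 21 counts (14.9 and 11.1 CPM) against 38 and 4 counts (9.89 and 1.61 CPM). It was tested (1.12 ± 1.04, edgeR adjusted p = 0.708), and its IgG libraries differed from each other more than the groups did. The summed level of 8 macrophage and leukocyte markers was 129 and 224 CPM in the Runx1 libraries and 122 and 127 CPM in the IgG libraries, and these markers differed in direction. Ptprc stood at 28.1 and 20.1 against 25.8 and 42.3 CPM, while Csf1r stood at 11.9 and 144 against 12.5 and 9.67 CPM. Psmb11, the thymus form, had 0 and 9 counts against 1 and 1, and with its 9 counts in a single library it was not tested. Intervals and floors of this kind cover counting error only.

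Of the 6 ATPase genes, 5 were higher at an edgeR p under 0.05 before adjustment, where 6.88% of all tested genes were. Summed over the ring the 6 genes stood at 1111 and 1134 CPM with the Runx1 antibody and 657 and 637 CPM with IgG. These sums differed by far less between replicates than between groups. Single genes differed more between the Runx1 libraries, and in opposite directions, as in Psmc1 and Psmc3 below. The median log2 fold change was 0.92. Psmc4 (chr7:28041707-28050101, minus strand) had 153 and 143 against 68.4 and 56.4 CPM (1.21 ± 0.30, edgeR adjusted p = 0.124). Psmc2 (chr5:21785283-21803787, plus strand) had the largest fold change of all 40 genes, 1.69 ± 0.45 (edgeR adjusted p = 0.150), with 144 and 72.1 against 38.2 and 27.0 CPM. Its Runx1 libraries differed 2 to 1 in level, yet the lower of them was still well above both IgG libraries. Psmc5 (chr11:106256154-106263120, plus strand), the ATPase with the highest level per kilobase, had 271 and 322 against 179 and 166 CPM (0.75 ± 0.21, edgeR adjusted p = 0.161).

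Psmc1 and Psmc3, next in the order of p, had log2 fold changes of 0.96 ± 0.28 (edgeR adjusted p = 0.182) and 0.89 ± 0.29 (edgeR adjusted p = 0.222). Psmc1 had 277 and 194 CPM with the Runx1 antibody against 99.4 and 139 CPM with IgG. Psmc3 had 174 and 282 against 133 and 108 CPM. Exons of Psmc3 overlap Slc39a13 on the opposite strand. Psmc6 (chr14:45329788-45349705, plus strand), named after its values were seen, had 92.5 and 121 CPM with the Runx1 antibody and 139 and 141 CPM with IgG. It was thus the 1 ATPase gene with both Runx1 libraries under both IgG libraries (-0.41 ± 0.28, edgeR adjusted p = 0.574). The IgG libraries held nearly equal levels of Psmc6, and the Runx1 libraries differed from each other by more than the nearer of them differed from IgG. Whether Psmc6 differs from the other ATPases was not tested.

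**Figure D3:**
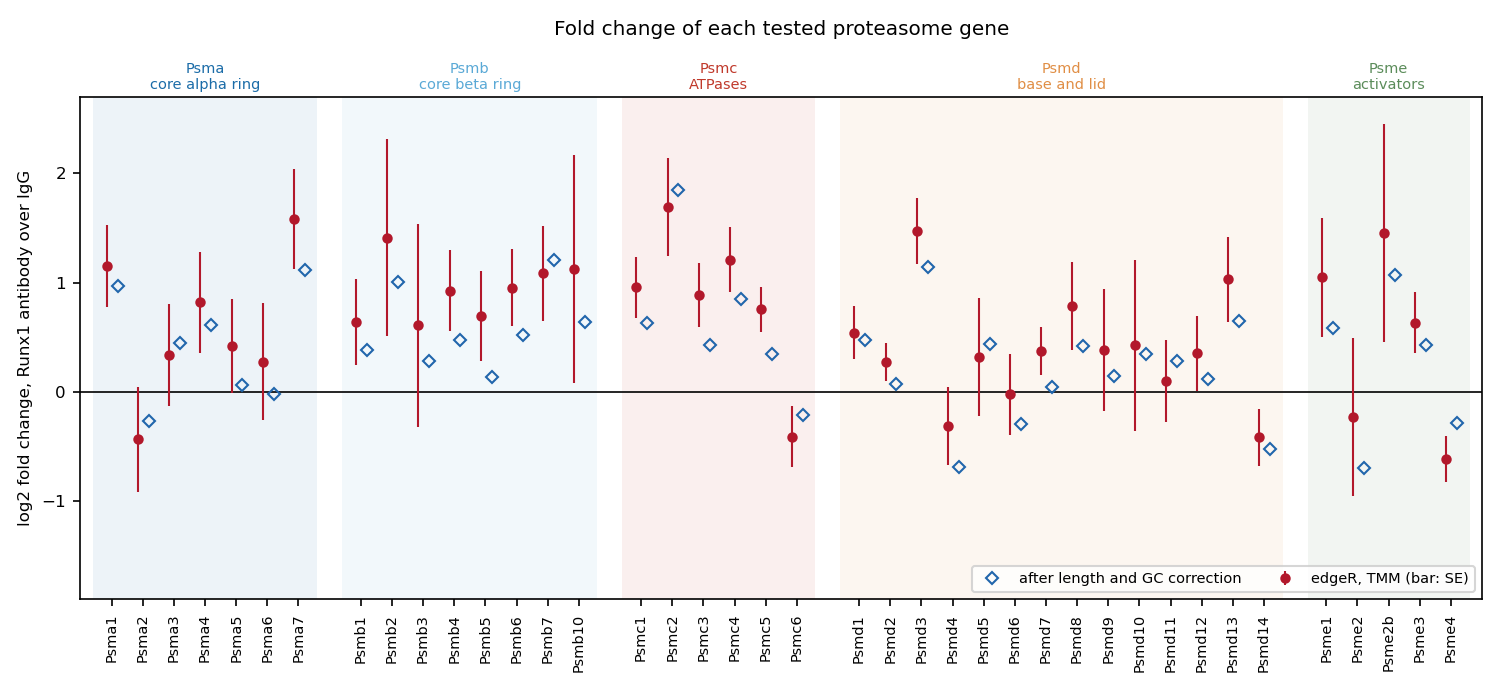
Log2 fold change of the 40 tested proteasome genes, Runx1 antibody over IgG, as points with bars of 1 SE (edgeR), and as open diamonds once length and GC content were corrected for. Of the points 33 lie above 0 and 7 below, and the diamonds have a median of 0.42 against 0.64 for the points.

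Of the 14 Psmd genes, 11 had a log2 fold change above 0 and the median was 0.36. Without overlap, 7 lay above IgG (24.1% over all tested genes) and 1 below (21.3%), and 6 overlapped. Psmd3 (chr11:98682554-98695979, plus strand), a scaffold subunit of the lid, had the smallest adjusted p of all proteasome genes. It had 151 and 182 CPM with the Runx1 antibody and 52.0 and 66.1 CPM with IgG, so its log2 fold change was 1.47 ± 0.30 (2.77-fold, edgeR adjusted p = 0.0797). Both Runx1 libraries were more than double the higher IgG library. It did not pass at 0.05 but would at 0.1, where 0.855% of all tested genes are called higher. Over 12 other settings on the scale of library composition its fold change ran from 1.14 to 1.64 and its adjusted p from 0.00105 to 0.208, and it was called in 5 of them. Its exons overlap Gm12356 on the opposite strand.

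The other lid genes were spread on both sides of 0. Psmd13 (chr7:140881968-140898643, plus strand), a further scaffold subunit whose exons overlap Sirt3 on the opposite strand, had 98.5 and 73.1 against 36.4 and 45.9 CPM (1.03 ± 0.39, edgeR adjusted p = 0.284). Psmd8 stood at 0.79 ± 0.40, Psmd7, the partner of the deubiquitinase, at 0.37 ± 0.22, Psmd12 at 0.35 and Psmd11 at 0.10 (log2 fold changes). Psmd6, named after its values were seen, had 60.3 and 59.9 CPM with the Runx1 antibody and 59.1 and 60.8 CPM with IgG, all 4 libraries within a narrow range. Its log2 fold change was -0.03, with an SE of 0.37 that is as large as the change of Psmd12. Psmd14 (chr2:61711694-61800376, plus strand), the enzyme of the lid that cuts ubiquitin chains off the substrate, had 104 and 127 against 155 and 147 CPM (-0.42 ± 0.26, edgeR adjusted p = 0.540). Both of its Runx1 libraries were below both IgG libraries. The 8 lid genes with a Psmd symbol together summed to 860 and 881 against 629 and 661 CPM, a ratio of 1.35.

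In the base, those of the large scaffold subunits Psmd1 and Psmd2 were the most abundant proteasome mRNAs by CPM in the Runx1 libraries. Psmd2 (chr16:20651652-20663414, plus strand) had 378 and 443 CPM with the Runx1 antibody and 328 and 339 CPM with IgG (0.27 ± 0.17, edgeR adjusted p = 0.538). Psmd1 (chr1:86064387-86139151, plus strand), whose exons overlap Htr2b and Gm21972, had 358 and 440 against 209 and 329 CPM (0.54 ± 0.24, edgeR adjusted p = 0.359). Neither pair of groups overlapped, but the IgG libraries of Psmd1 lay far apart. Psmd4 (chr3:95032694-95042614, minus strand), a ubiquitin receptor of the base, had 62.7 and 93.3 against 83.0 and 108 CPM and overlapped (-0.31 ± 0.36, edgeR adjusted p = 0.771). The assembly chaperones of the base, Psmd5, Psmd9 and Psmd10, are not part of the finished complex. All 3 overlapped between groups, with a median of 0.38.

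The activators differed in direction among themselves, with 3 above 0 and 2 below. Psme4 (chr11:30771726-30880361, plus strand), a large single-chain cap of the core found mainly in the nucleus, had 260 and 187 CPM with the Runx1 antibody and 338 and 333 CPM with IgG. Both Runx1 libraries were below both IgG libraries, and the log2 fold change was -0.62 ± 0.21 (edgeR adjusted p = 0.240), the lowest of the 40 genes. Without Runx1 replicate 1, the higher of the Runx1 libraries, it passed (-0.90 ± 0.24, edgeR adjusted p = 0.0247), while over the 12 other settings its adjusted p ran from 0.0247 to 0.660. Psme3 (chr11:101316213-101323537, plus strand), a nuclear ring-shaped activator, had 156 and 155 against 84.0 and 113 CPM (0.63 ± 0.28, edgeR adjusted p = 0.352). These 2 activators of the nucleus thus lay on opposite sides of 0. Corrected for length and GC content, Psme4, whose longest transcript has 6491 bases, stood at -0.29 ± 0.20 (edgeR adjusted p = 0.660) and Psme3 at 0.42 ± 0.29. The ratio of their counts, Psme4 over Psme3, was 1.66 and 1.21 in the Runx1 libraries and 4.02 and 2.95 in the IgG libraries. This ratio was not planned.

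Psme1 and Psme2 encode the interferon-induced activator ring. Psme1 (chr14:55578123-55581529, plus strand), whose exons overlap Emc9 on the opposite strand, had 34.6 and 57.8 against 18.2 and 25.8 CPM (1.05 ± 0.54, edgeR adjusted p = 0.436). Psme2 (chr14:55587441-55591113, minus strand) had 13.7 and 12.7 against 19.5 and 10.9 CPM, with its Runx1 libraries between its IgG libraries (-0.23 ± 0.72, edgeR adjusted p = 0.934). Its copy Psme2b (chr11:48945354-48946190, minus strand), named after its values were seen, had 20.9 and 10.6 against 2.08 and 9.27 CPM (1.45 ± 1.00, edgeR adjusted p = 0.580).
The values of these copies depend on how reads were divided between them, as their coding sequences of 717 bases differ at 5 bases and are 99.3% identical. Bases 424 to 543 of both coding sequences, which hold 3 of the 5 differing bases in capitals, are given to show how few positions tell the copies apart.
Psme2: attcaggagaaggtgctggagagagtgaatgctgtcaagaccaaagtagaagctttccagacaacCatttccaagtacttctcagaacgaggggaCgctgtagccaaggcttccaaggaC
Psme2b: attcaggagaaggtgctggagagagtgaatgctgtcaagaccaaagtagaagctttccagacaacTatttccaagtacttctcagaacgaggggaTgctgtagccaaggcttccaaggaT
Summed over both genes, the level was 34.6 and 23.3 CPM with the Runx1 antibody and 21.6 and 20.1 CPM with IgG, a ratio of 1.39, where Psme2 alone gave 0.870. The direction of Psme2 therefore changed with this choice, which was made after its values were seen.

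Levels between genes were compared per kilobase of the longest transcript. In the IgG libraries the median was highest in the ATPases, 64.5 CPM per kilobase, followed by 28.4 in both Psma and Psmd, 19.4 in Psmb and 15.8 in Psme. With the Runx1 antibody these medians were 102 for Psmc, 51.0 for Psma, 43.2 for Psmd, 39.2 for Psmb and 23.3 for Psme. Within each group the genes spread widely, from 9.41 (Psmc2) to 124 (Psmc5) CPM per kilobase with IgG in the ATPase ring, whose subunits the complex holds in equal number. In the beta ring the range with IgG was from 4.20 (Psmb3) to 56.2 (Psmb6). The medians of neighbouring groups lay well inside these ranges. Over all 40 genes the highest level was 31.3 times the lowest. With the median length of a gene's coding transcripts in place of the longest, the median over members with IgG was 42.5 in place of 28.9 CPM per kilobase.

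The fold change was related to base composition and length, both among proteasome genes and among all genes. Across the 40 genes the Spearman correlation of the log2 fold change with the GC content of the longest transcript was 0.43, and across 10681 tested protein-coding genes it was 0.26. With the length after the coding sequence it was -0.41 among the 40 genes and -0.24 among 10679 genes. These are descriptions across genes that share the same 4 libraries, and genes are not replicates. Proteasome transcripts are short, with a median of 1851 bases against 3729 for tested protein-coding genes, and with 194 against 1147 bases after the coding sequence, while their median GC content, 49.6%, was close to the 49.4% of those genes.

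The 26 genes with both Runx1 libraries above IgG had a median GC content of 51.0% and ranged from 40.8% to 57.4%. The 4 below IgG, Psma2, Psmc6, Psmd14 and Psme4, ranged from 37.0% to 43.9%, and the share of G or C at the third codon position ran from 36.0% to 47.9%. Psmd4, Psme2 and Psmd6, also below 0 but with overlapping libraries, had 52.8%, 52.8% and 47.1% GC. After the correction described below they stood at -0.69, -0.70 and -0.29. The GC ranges of the 26 and the 4 genes overlap, since Psmc2, the gene with the largest fold change, had 41.3% and Psmb7 had 40.8%. These are values of the longest transcript, 3466 and 2849 bases. The coding sequences, from a separately chosen transcript, had 1425 and 831 bases with 86 and 144 bases after them. The longest transcript may thus not be the main mRNA, and the correction below used it too. At the third codon position the 26 genes ranged from 36.5% to 72.7%, which also overlaps. Once length and GC content were corrected for in each library, the median of the 40 genes was 0.42 in place of 0.64, with 32 above 0, and 0.0065 over all tested genes. The group medians were then 0.45 in Psma, 0.49 in Psmb, 0.53 in Psmc, 0.21 in Psmd and 0.42 in Psme. Psmb5 moved from 0.69 to 0.13, while Psmc2 was at 1.85 and Psmd3 at 1.14.

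**Figure D4:**
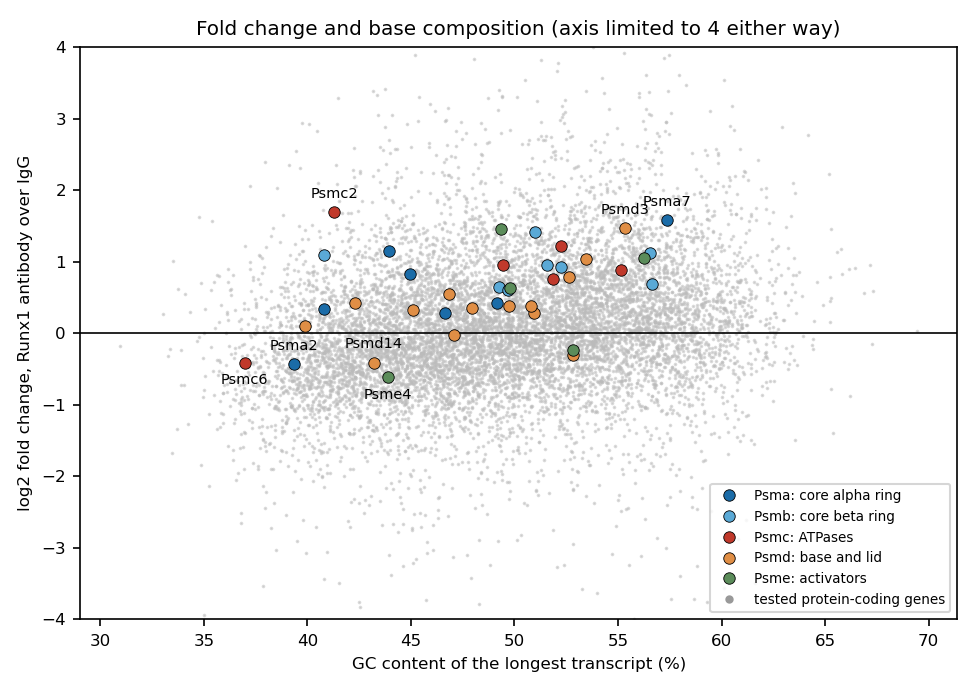
Log2 fold change, Runx1 antibody over IgG, against the GC content of the longest transcript in percent, for the 40 tested proteasome genes (coloured by group) and tested protein-coding genes (grey, those beyond 4 either way not shown). Psma2, Psmc6, Psmd14 and Psme4 lie between 37.0% and 43.9% GC and below 0, and Psmc2 at 41.3% GC has the highest fold change of the members. Psmd4, Psme2 and Psmd6, also below 0, lie between 47.1% and 52.8% GC.

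The scale of the comparison also sets the sign. Spike-in RNAs of the ERCC set took 0.0356% and 0.0378% of the Runx1 libraries and 0.0129% and 0.0175% of the IgG libraries. When libraries were scaled to them, the median of all tested genes was -1.25 and that of the proteasome genes -0.63, so the members stood 0.62 above the median gene, and 4 were above 0. On that scale 0 were called higher and 6 lower, namely Psma2, Psmc6, Psmd2, Psmd4, Psmd14 and Psme4, where 31.6% of all tested genes were called lower. Higher and lower in this text refer to shares of the library.

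Genes that act with the proteasome but carry other names lay near 0 as a list. The list held 31 genes, of which 29 were tested. They were shuttles, chaperones, deubiquitinases, the segregase Vcp with its cofactors and the transcription factors that control proteasome genes. The subunits Adrm1 and Sem1, which carry other names, were also on it. None was called by edgeR, and before adjustment 1 was higher and 0 were lower at a p under 0.05, where the background was 6.88% and 7.35%. There were 12 above 0 and 17 below, with a median of -0.13, and 3 lay above IgG without overlap (24.1% over all tested genes), 8 below (21.3%), and 18 overlapped. Their summed level was 3005 and 3225 CPM with the Runx1 antibody and 3214 and 3423 CPM with IgG. Their transcripts were longer than those of the members, with a median of 3686 bases and a GC content of 48.0%. After the length and GC correction the median log2 fold change of the list was -0.11. The difference between the list and the members was not tested.

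Of this list, Adrm1, which encodes a ubiquitin receptor of the base and is itself a subunit outside the symbol rule, had the smallest p. It had 55.5 and 134 CPM with the Runx1 antibody and 44.2 and 42.3 CPM with IgG, with Runx1 replicate 2 standing apart (1.11 ± 0.47, edgeR adjusted p = 0.332). Psmf1, which encodes an inhibitor of the core, had 46.6 and 20.1 against 46.6 and 80.6 CPM (-0.96 ± 0.54, edgeR adjusted p = 0.476). Sem1, a small lid subunit that is also outside the symbol rule, was named after its values were seen. It had 29.8 and 26.5 against 48.9 and 45.9 CPM (-0.78 ± 0.47, edgeR adjusted p = 0.515), the opposite direction to Adrm1.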

How the data were processed

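RIP-seq libraries of sorted CD31+ cells, 2 per antibody, were compared. Per the labels' protocols, reverse transcription of the recovered RNA followed a single-cell method, with sonication of the cDNA. No molecular identifiers are named. The authors deposited raw counts per gene, as whole numbers. The tools named, per the submitters' processing notes, are Salmon 1.1.0, STAR 2.7.3a and Trimmomatic 0.36, with mm10 as the build. Not given in the sources used here are the role of each tool, the annotation, the strand setting and the treatment of reads shared between genes, so a gene and an overlapping or near-identical one cannot be told apart with certainty. Near-identical stretches (blastn 2.17.0, at least 200 bases at 95% identity) were found for 12 of the members.

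The test for each gene was edgeR's quasi-likelihood test (version 4.0.16, R 4.3.3, TMM, filterByExpr with a minimum count of 10 and a total of 15, two-sided) with Benjamini-Hochberg adjustment over 12401 genes. The standard error is implied by the test statistic. Length, GC content and sequences came from GENCODE M21. Length and GC content were those of a gene's longest transcript of any type. The coding sequence came from the principal coding transcript, which can be another. The correction used a natural spline of length and of GC content, with 5 degrees of freedom, in every library. Alternatives were DESeq2 1.42.0, its size factors, library totals, spike-in scaling, limma-voom (limma 3.58.1), filters, a replicate block and each library left out.

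Named in each group were the 3 genes with the smallest p, the one with the highest level per kilobase, and the catalytic, immunoproteasome, ubiquitin-handling and activator genes. All other members given with values were named after their values were seen. One gene of the related list that this rule names is not reported here. The members and lists were chosen with earlier results of these data known.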

Additional observations from a re-analysis of the deposited data

How the results depend on the processing

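The number of genes called over the whole table varied with the setting. With no low-count filter 224 genes were higher and 325 lower, with a strict filter of 10 counts in every library 125 and 160, with DESeq2 246 and 344, with limma-voom 102 and 120, corrected for length and GC content 23 and 4, and at a false discovery rate of 0.1 106 and 124. On the spike-in scale there were 19 higher and 3914 lower. Genes tested numbered 22242 with no filter (44 members), 9367 with the strict filter (37 members) and 5669 with an adjusted p in DESeq2 (33 members). With limma-voom, at 0.1 and on the spike-in scale 12401 genes were tested, 40 of them members. Calls of members below are to be read against these totals and the calls of all genes in the same setting. With a replicate block there were 2 higher and 0 lower, and 0 proteasome genes. The labels do not say that replicate numbers pair the libraries, and the deviations of same-numbered libraries had a correlation of 0.0048. Leaving out 1 library at a time gave 94 to 248 higher and 80 to 352 lower. Of the proteasome genes, 4 were called higher with no filter, 1 with the strict filter, 6 with DESeq2, 1 with limma-voom and 1 at 0.1, and 0 to 3 with a library left out. Called lower were 6 on the spike-in scale and 0 to 1 with a library left out.

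The median of the proteasome genes was -0.63 on the spike-in scale and 0.42 after the length and GC correction. The spike-in scale lowered nearly every gene by a like amount, by the construction of 1 factor per library. Group medians there were -0.80 (Psma), -0.31 (Psmb), -0.35 (Psmc), -0.94 (Psmd) and -0.61 (Psme). With 1 library left out the median ran from 0.56 to 0.72 over all members, 0.27 to 0.73 in Psma, 0.58 to 0.97 in Psmb, 0.88 to 0.97 in Psmc, 0.22 to 0.37 in Psmd and 0.42 to 0.85 in Psme. Genes that changed sign on the spike-in scale were, in Psma, Psma1 (-0.16), Psma3 (-0.88), Psma4 (-0.48), Psma5 (-0.80) and Psma6 (-0.99). In Psmb they were Psmb1 (-0.65), Psmb2 (-0.019), Psmb3 (-0.68), Psmb4 (-0.34), Psmb5 (-0.61), Psmb6 (-0.29), Psmb7 (-0.19) and Psmb10 (-0.28). In Psmc they were Psmc1 (-0.28), Psmc3 (-0.42), Psmc4 (-0.085) and Psmc5 (-0.54). In Psmd they were Psmd1 (-0.69), Psmd2 (-1.01), Psmd5 (-0.98), Psmd7 (-0.91), Psmd8 (-0.46), Psmd9 (-0.93), Psmd10 (-0.94), Psmd11 (-1.20), Psmd12 (-0.90) and Psmd13 (-0.22), and in Psme Psme1 (-0.21) and Psme3 (-0.61). Psma6 also changed sign with limma-voom (-0.0073) and when corrected for length and GC content (-0.017), and Psmd6 with library totals alone (0.0033). With 1 library left out the fold change ran from -0.85 to 0.88 in Psma6, -0.27 to 1.11 in Psmd10, -0.19 to 0.29 in Psmd11, -0.25 to 0.69 in Psmd5, -0.11 to 0.70 in Psmd9 and -0.60 to 0.24 in Psme2. The causes were not tested. With 2 libraries a group and a biological coefficient of variation of 46.1%, depth and replication limit what single genes can show.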

Other observations

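Values of near-identical copies and of low members stand outside the comparison. Psma3 shares 665 identical bases with the processed pseudogene Gm13835, with 61 and 57 counts in the Runx1 libraries and 37 and 32 in the IgG libraries. Psma3 summed with its 4 copies stood at 94.9 and 74.7 CPM against 39.5 and 62.4 CPM, a ratio of 1.66 where Psma3 alone gave 1.29. This sum was chosen after the values were seen. Summed with their copies, Psma4 had a ratio of 1.72, Psma5 of 1.27 and Psmd11 of 1.00, close to their values alone (1.80, 1.36 and 1.09). Both Psmb2 and Psmb10 were low in IgG replicate 2, with 6 and 4 counts, against 84 and 38 counts in IgG replicate 1. Psmc3ip, which shares the symbol pattern and no function with the ATPases, had 8.95 and 5.83 CPM against 3.12 and 5.64 CPM (log2 fold change 0.72 ± 1.09, edgeR adjusted p = 0.841), and exons that overlap Mlx.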
